A study of Homo sapiens with 24 samples.

Results

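An MRM2 knock-out of HEK293T Flp-In T-REx, a human embryonic kidney cell line with a site for inserting transgenes, was set against its parental line in mitochondrial RNA libraries that were reverse transcribed at 500 μM dNTPs, with 3 libraries for each line out of 24 libraries in the series. Knock-outs of MRM1 and MRM3 in the same cell line, with 3 libraries each at 500 μM dNTPs, entered the same model fits. The study lists both of these lines as provided by others. By the study's methods and the labels, the MRM2 knock-out was made with zinc-finger nucleases as a clonal line, for which a medium with more serum and with uridine is given, while the parental line was unedited. The medium of the profiled plates is not given for each library, and loss of MRM2, the clone and any difference in medium cannot be told apart. Each library came from its own culture plate, and p-values therefore describe variation among plates within lines. In the main model fits this variation was pooled over all lines fitted, the MRM1 and MRM3 knock-outs included. It is thus not the spread of the MRM2 knock-out and parental plates alone. The libraries were chosen by their titles and column names, because the genotype field names an MRM3 knock-out for all 6 of them and goes against the title in 18 of the 24 samples. MRM2 is a nuclear gene and only mitochondrial transcripts were counted, so neither its loss nor cell type markers were measured here.

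All 37 mitochondrial transcripts and their 15416 positions are described. The MRM2 knock-out libraries held 194073, 191831 and 162673 reads, against 807322, 604562 and 613013 reads in the parental libraries. No 2 libraries of a line agreed within sampling noise. The knock-out was thus read at lower depth throughout, which is given beside the results that it touches. Reads carry no molecular identifiers, so counts cover counting error only.

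MRM1, MRM2 and MRM3 are mitochondrial methyltransferases that add a methyl group to the ribose 2′-hydroxyl of a nucleotide in the 16S mt-rRNA, the RNA of the large ribosomal subunit. MRM2 modifies U3039 and MRM3 its neighbour G3040, both in the A loop, which meets the aminoacyl end of the tRNA in the A site, and MRM1 modifies G2815 in the P loop. A methylated ribose resists alkaline hydrolysis of the bond on its 3′ side, so few RNA fragments end there. The 3′ end of a sequenced fragment marks where the RNA broke, and its 5′ end marks either a break or the place where reverse transcription stopped.

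The sequences that the positional results turn on are given 5′ to 3′ as RNA of the plus strand of the mitochondrial chromosome in GRCh38, as the deposited table holds them, and capitals mark the nucleotides after which the knock-out differed most.
16S around the MRM2 target U3039, chrM:3027-3051: uaaagguucguuUguucaacgauua
16S around A2717 and G2721, chrM:2707-2731: acacagcaagAcgaGaagacccuau
16S around A3059, chrM:3047-3071: gauuaaaguccuAcgugaucugagu
16S around A2031, chrM:2019-2043: guuguccaagauAgaaucuuaguuc
12S around C1495, chrM:1483-1507: ccgcccgucaccCuccucaaguaua
G3040 is the first lower-case base after the capital in the first window, and A3059 lies 20 nucleotides downstream of U3039.

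Fragments of the knock-out ended at U3039 more often than at the nucleotides around it, and those of parental cells less often. Relative to the mean over its 12 flanking nucleotides, U3039 had 150.1, 151.0 and 166.2% as many 3′ ends in the MRM2 knock-out, against 32.7, 42.7 and 31.2% in parental cells. The groups lay far apart, with a log2 change of 2.14 (SE 0.16, adjusted p = 3.8e-07, limma with Benjamini-Hochberg adjustment over 2196 positions). The reads behind these values were 156, 131 and 107 in the knock-out and 155, 160 and 100 in parental cells, although the knock-out libraries were the shallower ones. U3039 was the largest change among the called positions with more than a few ends, and it was called in all 13 alternative analyses, where the log2 change lay between 2.06 and 2.28. None of the other 20 positions within 10 nucleotides was called, and their log2 changes lay between -0.89 and 0.49.

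**Figure D1:**
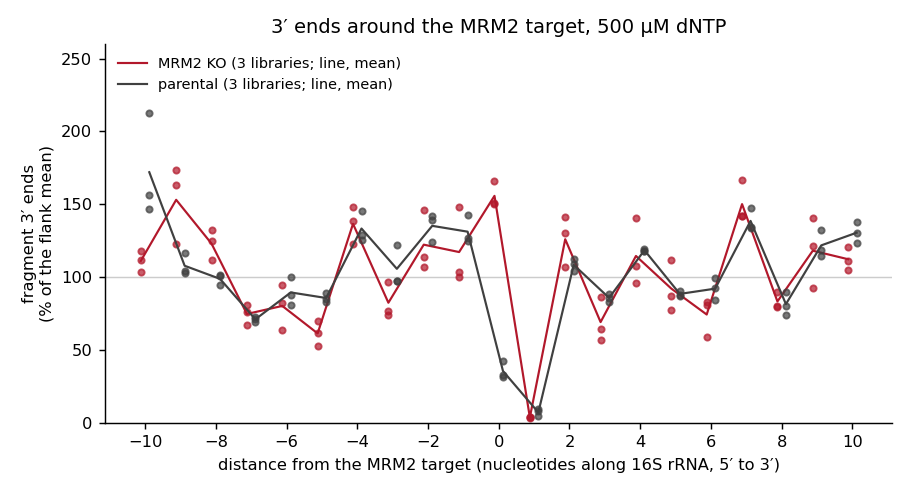
Fragment 3′ ends in percent of the flank mean (vertical axis) at each nucleotide within 10 of the MRM2 target in 16S (horizontal axis, nucleotides), in the MRM2 knock-out (red) and the parental line (grey), with 3 libraries as points and their mean as a line. At the target the knock-out libraries lie at 150.1 to 166.2% and the parental libraries at 31.2 to 42.7%, while at the next nucleotide, the MRM3 target, both lines lie under 10%.

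In the cleavage protection score, which runs from 0 (no protection) to 1 and was deposited for each library, U3039 was the 1 position called among 641 tested (0.156%). Its score was 0 in all 3 knock-out libraries and 0.360, 0.256 and 0.372 in the parental libraries, a difference of -0.33 (SE 0.055, adjusted p = 0.0102, limma). Before negative values are set to 0 the score was -0.419, -0.453 and -0.496 in the knock-out. The call was lost without knock-out replicate 2 or parental replicate 1 or 3, with the 6 libraries alone, without the filter on scores above 0 and after thinning to equal depth. At an unadjusted p under 0.05 there were 48 positions in this test. Only positions above 0 in at least 3 libraries were tested, and U3039 entered through lines other than the MRM2 knock-out. A position at 0 in parental cells could not fall further. The test thus cannot show whether U3039 alone lost protection.

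Neither of the other 2 methylated riboses of 16S was called. G3040, the target of MRM3, had protection scores of 0.929, 0.907 and 0.902 in the MRM2 knock-out, against 0.887, 0.780 and 0.799 in parental cells (adjusted p = 0.661, limma). Its 3′ ends came to 3.22, 3.90 and 3.91% of the flank mean in the knock-out and 4.37, 9.14 and 7.81% in parental cells, a log2 change of -0.89 (SE 0.34, adjusted p = 0.259, limma) on 2 to 3 reads in the knock-out and 21 to 36 in parental cells. The flank of G3040 includes U3039, where the knock-out had gained ends. At G2815, the target of MRM1, the score was 0.390, 0.485 and 0.595 in the knock-out and 0.632, 0.418 and 0.578 in parental cells (adjusted p = 0.890, limma), and the groups overlapped.

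The 7 other modified residues of the mt-rRNAs carry other kinds of modification, and none passed in any of the positional tests by limma. A2617 of 16S carries 1-methyladenosine, set by TRMT61B, which blocks base pairing and so stops reverse transcription. Its share of stopping reads was 42.4, 48.6 and 46.6% in the MRM2 knock-out, against 44.5, 36.5 and 46.1% in parental cells (adjusted p = 0.644, limma), the highest of all modified residues in both lines. Its protection score was 0 in all 3 knock-out libraries and 0.152, 0.0473 and 0.193 in parental cells (adjusted p = 0.656, limma), so the groups did not overlap but the difference did not pass. At U3067, a pseudouridine of RPUSD4, the 3′ ends came to 66.3, 73.4 and 93.4% of the flank mean in the knock-out and 64.5, 59.6 and 63.3% in parental cells (adjusted p = 0.386, limma). U1076, C1486 and C1488 of 12S, the sites of TRMT2B, METTL15 and NSUN4, had adjusted p = 0.711, 0.538 and 0.443 for their 3′ ends in limma.

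Beyond U3039, fragments of the knock-out ended more often at a small set of other rRNA nucleotides. Of the 2196 positions tested for 3′ ends relative to the flanks, 872 in 12S, 1323 in 16S and 1 in the tRNA gene MT-TE, 16 were called (0.729%), and 486 had no overlap between the lines. 13 were higher in the knock-out (0.592%), 4 in 12S and 9 in 16S, and 3 were lower (0.137%), all in 16S. 6 of the 16 were called in every alternative analysis, all of them higher: U3039, A2717, G2721, A3059 and A2031 in 16S and C1495 in 12S. None of these apart from U3039 is among the 10 modified residues. Leaving out 1 library gave 34 calls without knock-out replicate 1, 8 without knock-out replicate 2 or 3, 6, 7 and 11 without parental replicate 1, 2 and 3.

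C1495 in the 3′ part of 12S, the RNA of the small subunit, had the largest such change after U3039. Its 3′ ends came to 277, 352 and 386% of the flank mean in the MRM2 knock-out, against 94.7, 93.9 and 114% in parental cells, a log2 change of 1.74 (SE 0.17, adjusted p = 6.99e-06, limma). The lines lay far apart, on 161, 179 and 129 reads in the knock-out and 283, 205 and 219 in parental cells. C1495 stands 7 nucleotides downstream of C1488 and 9 downstream of C1486.

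G2721 of 16S had 263, 269 and 322% of the flank mean in the knock-out and 109, 117 and 96.3% in parental cells, with a log2 change of 1.41 (SE 0.14, adjusted p = 6.99e-06, limma). A2717, 4 nucleotides upstream, had 179, 258 and 248% in the knock-out and 85.2, 91.9 and 95.01% in parental cells, with a log2 change of 1.31 (SE 0.16, adjusted p = 1.01e-04, limma). Neither overlapped between the lines. C2718 between them was called lower, at 101, 107 and 96.9% in the knock-out and 180, 136 and 180% in parental cells (log2 change -0.69, SE 0.14, adjusted p = 0.0243, limma), and its flank holds both A2717 and G2721.

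A3059 had 178, 214 and 226% of the flank mean in the knock-out, against 83.8, 90.0 and 77.3% in parental cells, a log2 change of 1.29 (SE 0.18, adjusted p = 3.24e-04, limma). A2031, in the 5′ part of 16S, had 236, 267 and 245% in the knock-out and 98.8, 95.1 and 105% in parental cells, a log2 change of 1.32 (SE 0.14, adjusted p = 1.73e-05, limma). At both, the parental libraries lay near the level of the flanks and all knock-out libraries above it.

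C2718 and the remaining 9 calls were each lost in at least 4 of the alternatives. They were higher at C963, A1096 and A751 in 12S and at C2433, U2731, G2943 and C2982 in 16S, and lower at C2548 and A3011 in 16S. Of these, U2731 and G2943 had the widest spread in the knock-out, with 261, 436 and 529% and 114, 209 and 229% of the flank mean, against 175, 159 and 217% and 83.1, 74.5 and 61.4% in parental cells. A751 rests on 2, 0 and 4 ends in the knock-out and on 0 ends in each parental library, so no fold is given for it.

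The other knock-out lines were read at the 6 positions as well, a comparison added after their values were seen. At the MRM2 target U3039 the mean was 156% in the MRM2 knock-out and 39.8% in the MRM1 knock-out (log2 difference 1.97, SE 0.16, adjusted p = 1.48e-06, limma). Against the MRM3 knock-out, with a mean of 99.9%, the difference at U3039 did not pass (log2 difference 0.64, SE 0.16, adjusted p = 0.114, limma). The other 5 positions were chosen because the MRM2 knock-out libraries were high there, so their levels in the other lines are given as a description, with no test. In the MRM1 knock-out, C1495, A2031, A2717, G2721 and A3059 had means of 127, 112, 91.05, 123 and 87.6%. C1495 and A2031 had means of 191 and 145% in the MRM3 knock-out, above the parental means of 101 and 99.7%, while A2717, G2721 and A3059 had 97.6, 110 and 82.6% there and 90.7, 107 and 83.7% in parental cells.

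**Figure D2:**
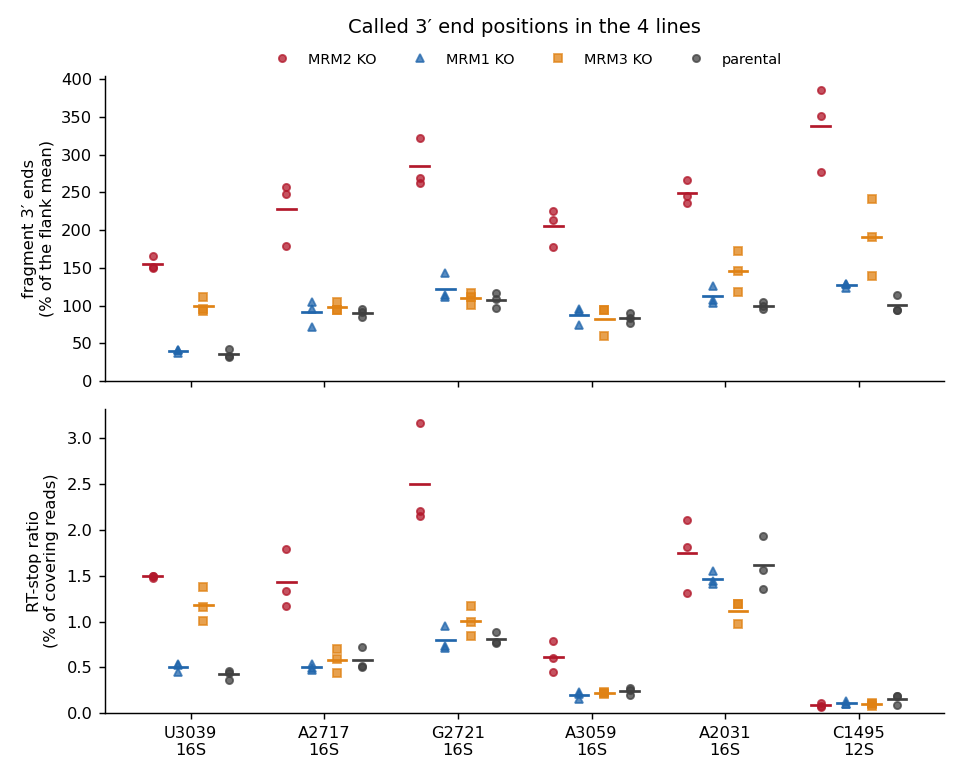
Fragment 3′ ends in percent of the flank mean (upper panel) and the RT-stop ratio in percent of the covering reads (lower panel) at the 6 rRNA positions called in every alternative analysis, in the MRM2, MRM1 and MRM3 knock-outs and the parental line, with 3 libraries as points and the mean as a bar. The MRM2 knock-out lies highest in the upper panel at all 6 positions, with every library above those of the other lines, and likewise in the lower panel at U3039, A2717, G2721 and A3059. At A2031 its mean stop ratio is also the highest, but its libraries overlap with those of other lines, and at C1495 its mean is the lowest.

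The 5′ ends on the other side of the same bonds were read separately, as the RT-stop ratio, which is the share of reads covering a nucleotide that begin at it, assigned to the nucleotide before. At U3039 this ratio was 1.48, 1.49 and 1.501% in the MRM2 knock-out, against 0.367, 0.462 and 0.443% in parental cells, with a log2 change of 1.82 (SE 0.28, adjusted p = 0.0173, limma). The stops behind it were 254, 241 and 214 in the knock-out and 257, 250 and 246 in parental cells. Of the 13 positions with more 3′ ends, 5 were also called higher in this ratio, and all 5 lie in 16S, at A2717, G2721, G2943, U3039 and A3059. Over all positions tested in this ratio, 429 of 14090 (3.04%) were called higher. Of these, 8 lie among the 1558 tested in 16S and 1 among the 953 in 12S.

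G2721 had RT-stop ratios of 2.15, 2.20 and 3.16% in the knock-out and 0.762, 0.881 and 0.779% in parental cells (log2 change 1.61, SE 0.29, adjusted p = 0.0173, limma). The ratio at A2717 was 1.33, 1.17 and 1.79% in the knock-out and 0.505, 0.720 and 0.521% in parental cells (log2 change 1.29, SE 0.31, adjusted p = 0.0419, limma). At A3059 it was 0.452, 0.604 and 0.787% in the knock-out and 0.255, 0.272 and 0.199% in parental cells (log2 change 1.32, SE 0.32, adjusted p = 0.0405, limma). In all 3 the lines did not overlap, and the 5 positions were also higher by edgeR on the stop counts, where log2 changes lay between 1.29 and 1.82. U3039 and G2721 were called in 10 of 13 alternatives, thinning to the same depth included (adjusted p = 0.0313 each, limma), and lost the call without knock-out replicate 2 or 3 or parental replicate 1 (adjusted p up to 0.0824 and 0.0846). G2943, A3059 and A2717 were called in 4, 3 and 2 of the 13, and lost it also with the replicate number as a block, with 0.1 read added in place of 1 and after thinning (adjusted p over the alternatives up to 0.131, 0.192 and 0.155, limma).

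C1495 and A2031, which had more 3′ ends in the knock-out, were not called in the RT-stop ratio. The RT-stop ratio at C1495 was 0.0736, 0.0802 and 0.115% in the MRM2 knock-out, against 0.193, 0.188 and 0.0938% in parental cells (adjusted p = 0.260, limma), on 5 to 7 stops in the knock-out. At A2031 it was 1.31, 1.81 and 2.11% in the knock-out and 1.36, 1.56 and 1.93% in parental cells (adjusted p = 0.885, limma).

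Across all transcripts, 474 of 14090 positions were called in the RT-stop ratio (3.36%), 429 higher (3.04%) and 45 lower (0.319%) in the knock-out. The deposited ratio adds 1 read to stops and to coverage, which weighs more at the lower depth of the knock-out. In 390 of the 429 each line had at most 3 stops over its 3 libraries, as at C7377 of MT-CO1 and C8175, G8189, U8222 and U8238 of MT-CO2, the 5 largest, which had at most 2 stops in any library. With 0.1 read added there were 7 higher and 46 lower calls, with edgeR on the counts 9 higher and 241 lower, and with libraries thinned to the same depth 2 higher and 70 lower. Of the 429, 5 were called higher by edgeR and 2 with thinned libraries. No position was called without knock-out replicate 2, knock-out replicate 3 or parental replicate 1.

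Each of the 45 lower calls had more than 3 stops in parental cells, summed over the 3 libraries. In 17 of them the knock-out had at most 3 stops by the same sum, and in 12 each line had more than 10. Of the 45, 24 lie in 8 of the 22 tRNAs, 17 in mRNAs and 4 in rRNAs. Of 1155 tRNA positions tested, these 24 were thus called lower and 4 were called higher. 36 of the 45 were also called lower by edgeR on the counts, and 12 with thinned libraries. The median log2 change over all positions was 0.11 in the deposited ratio and -0.32 by edgeR on the counts, and mean fragment length was called longer in the knock-out in 3 of 33 transcripts, all tRNAs. The part of fragment length in these calls was not tested.

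The largest fall was at G12168 in MT-TH, the gene of the histidine tRNA, on the plus strand.
MT-TH around G12168, chrM:12156-12180: aaacaucagauuGugaaucugacaa
There 7, 8 and 2 of 1292, 1896 and 937 reads stopped in the MRM2 knock-out, against 175, 62 and 77 of 3070, 1845 and 2252 in parental cells. The deposited ratios, 0.619, 0.474 and 0.320% in the knock-out and 5.73, 3.41 and 3.46% in parental cells, gave a log2 change of -3.16 (SE 0.47, adjusted p = 0.0173, limma), which with thinned libraries was -3.43 (adjusted p = 0.00781, limma). Its neighbour U12167 was called too, at 0.211 ± 0.0546% in the knock-out and 1.37 ± 0.746% in parental cells (SD, n = 3 each). G12168 lost its call in 3 of 13 alternatives, without knock-out replicate 2 or 3 or parental replicate 1. U12167 lost it in 8 of 13, the replicate block and thinning among them.

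MT-TL1, the gene of a leucine tRNA, had 4 neighbouring positions lower, C3245 to G3248. At C3245 the stops were 0, 1 and 1 in the knock-out and 17, 14 and 15 in parental cells, at a coverage of 2265 to 3671 reads in the knock-out and 2778 to 5469 in parental cells. The call at C3245 was lost in 4 of 13 alternatives. MT-TV, the valine tRNA between the 2 rRNAs, had 5 positions lower and MT-TM, the methionine tRNA, 4. Of these MT-TL1, MT-TV and MT-TM positions, C3245, G3248, C1619 and A1629 passed with thinned libraries. The others did not (adjusted p from 0.0564 to 0.251, limma). At G15989 in MT-TP, the proline tRNA, the mean ratio was 22.7% in the knock-out and 37.2% in parental cells (log2 change -0.71, adjusted p = 0.0190, limma).

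Near the 3′ end of 12S, 2 positions were called lower in the RT-stop ratio and the last 2 bins of coverage higher in the knock-out. At G1586 there were 4, 3 and 4 stops in the MRM2 knock-out, against 45, 37 and 16 in parental cells (log2 change of the ratio -1.97, SE 0.48, adjusted p = 0.0406, limma), and the call was lost in 10 of 13 alternatives. At C1589 there was no stop in any knock-out library and 5, 3 and 6 in parental cells (adjusted p = 0.0186, limma), and the call was lost in 5 of 13. TFB1M dimethylates the adjacent adenosines A1583 and A1584 near this end, and both bases impede reverse transcription. They are the capitals in the window that runs to the last nucleotide of 12S.
12S around A1583 and A1584, chrM:1573-1601: aguguacuggAAagugcacuuggacgaac
The RT-stop ratio at A1583 was 2.41, 3.05 and 3.83% in the MRM2 knock-out, against 6.71, 5.89 and 4.25% in parental cells (log2 change -0.86, SE 0.25, adjusted p = 0.0758, limma). At A1584 it was 1.71, 2.87 and 2.88% in the knock-out and 5.57, 5.01 and 3.96% in parental cells (log2 change -0.99, SE 0.25, adjusted p = 0.0533, limma). Neither overlapped between the lines and neither passed, while both passed by edgeR on the counts, with log2 changes of -0.86 and -0.96 (adjusted p = 9.11e-05 and 1.95e-05), and neither with thinned libraries (adjusted p = 0.134 and 0.0937, limma).

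Coverage was measured as a share of the transcript's mean in bins of 50 nucleotides. The bin of 12S from transcript nucleotide 901 to 950 had a mean of 0.558 of the 12S mean in the knock-out and 0.276 in parental cells, a log2 change of 1.02 (adjusted p = 0.0268, limma). This call was lost with the replicate number as a block, which left 0 bins called, and without knock-out replicate 2 or 3 or parental replicate 1 or 2 (adjusted p up to 0.129). Of the 12S reads, 4.91, 6.91 and 7.43% finished at the last nucleotide in the knock-out, against 1.97, 1.89 and 3.54% in parental cells. The groups did not overlap, and the exact permutation test gave p = 0.1, the smallest that 3 against 3 allows. Parental replicate 3 lay nearest to the knock-out in the bin, in these reads and in fragment length.

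Fragment length was called different in few transcripts, although the lines often did not overlap. In 16S the mean fragment length was 157, 157 and 163 nucleotides in the MRM2 knock-out, against 133, 131 and 152 in parental cells, and in 12S 150.4, 149.8 and 152 in the knock-out against 129, 127 and 146 in parental cells, which did not pass (adjusted p = 0.0536 and 0.0591, limma). In 23 of the 33 transcripts with at least 100 reads in each library, each of the knock-out libraries had longer fragments than any parental one. 3 were called (9.09%), all longer in the knock-out and all tRNAs, MT-TA, MT-TP and MT-TQ of the light-strand transcript. Same-numbered libraries correlated in this measure (0.20, 0.24 and 0.48), but not every knock-out library correlated best with its own number. With the replicate number as a block 2 were called. Without parental replicate 3, whose fragments were longer than those of the other parental libraries, 29 were called, and the 6 libraries alone gave 23.

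Coverage of mRNAs in the knock-out was shifted towards their 5′ part. The ratio of mean coverage between the first and the last of 3 equal parts of a transcript was called for 12 of 33 transcripts (36.4%), 11 higher (33.3%) and 1 lower (3.03%). The 11 were 9 of the 13 mRNAs, 16S and MT-TA. For MT-ND1, a complex I subunit, the ratio was 1.63, 1.68 and 1.88 in the MRM2 knock-out, against 1.099, 1.11 and 1.19 in parental cells (log2 change 0.61, SE 0.13, adjusted p = 0.0226, limma). For MT-CO3, a complex IV subunit, it was 1.01, 1.40 and 1.36 in the knock-out and 0.671, 0.620 and 0.820 in parental cells (log2 change 0.83, SE 0.21, adjusted p = 0.0226, limma).

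MT-ND2, MT-ND4, MT-ND5, MT-ND6, MT-CO1, MT-CO2 and MT-CYB rose as well, with log2 changes between 0.15 for MT-ND4 and 0.75 for MT-ND2. MT-TS1, a serine tRNA, fell, at 0.0675 ± 0.0219 in the knock-out and 0.134 ± 0.0222 in parental cells (SD, n = 3 each). No transcript was called without knock-out replicate 2 or parental replicate 1 or 2, 1 without knock-out replicate 3 and 7 without knock-out replicate 1. The part of fragment length, given above, was not tested.

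In bins, 35 of 259 were called (13.5%), 16 higher (6.18%) and 19 lower (7.34%). The higher ones were mostly the first bins of MT-ND1, MT-CO3, MT-ND5, MT-CYB and MT-CO2 and the last 2 of 12S, and the lower ones mostly lay in the 3′ part of MT-CO3, MT-ND2, MT-ND1, MT-CYB and MT-CO2. The first 50 nucleotides of MT-CO3 had 1.60 times the transcript's mean coverage in the knock-out and 0.832 times in parental cells (log2 change 0.94, adjusted p = 0.0330, limma), a call lost in 5 of 9 alternatives, the replicate block among them. No bin was called without knock-out replicate 2 or parental replicate 1 or 2, 5 without knock-out replicate 3, 63 without knock-out replicate 1 and 80 without parental replicate 3.

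**Figure D3:**
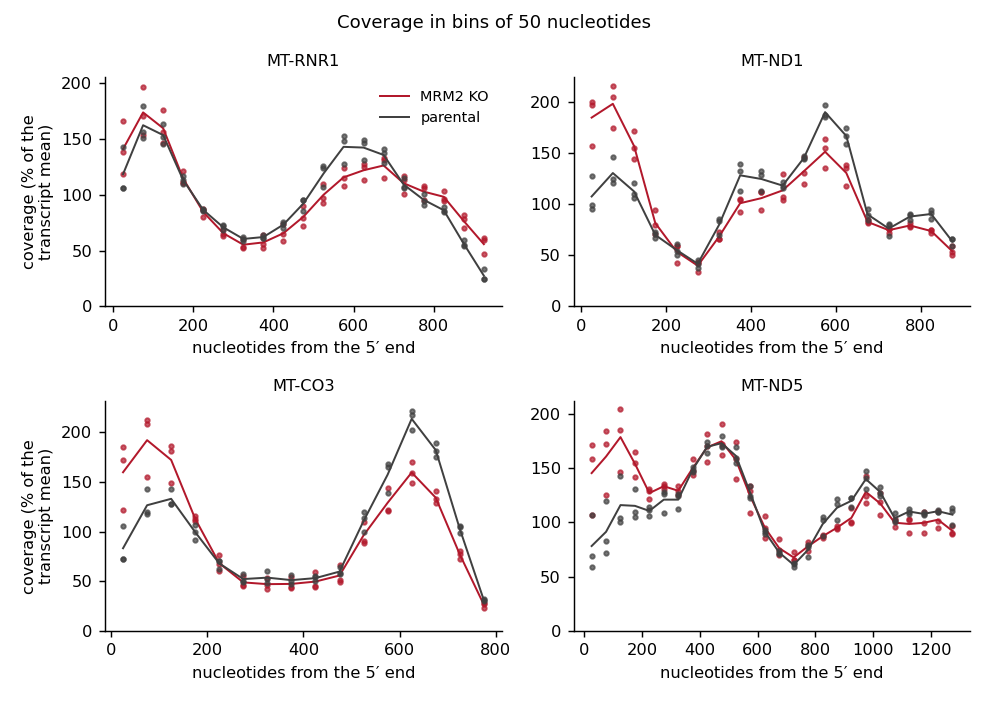
Coverage in percent of the transcript mean (vertical axis) in bins of 50 nucleotides from the 5′ end (horizontal axis) of 12S (MT-RNR1), MT-ND1, MT-CO3 and MT-ND5, in the MRM2 knock-out (red) and the parental line (grey), with libraries as points and means as lines. Bins with a mean coverage under 50 reads in a library are not drawn. The knock-out lies above the parental line in the first bins of the mRNAs and in the last bins of 12S.

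The number of reads per transcript depended on how the libraries were scaled. With TMM scaling, which sets the typical transcript to no change, 5 of 37 transcripts were called by edgeR (13.5%), all lower in the MRM2 knock-out, and none higher, where 2 had an unadjusted p under 0.05. They were MT-RNR1, the 12S gene (log2 change -1.01, SE 0.21, adjusted p = 1.49e-04), MT-RNR2, the 16S gene (-0.79, SE 0.21, adjusted p = 0.00306), MT-CO1 (-1.19, SE 0.30, adjusted p = 0.00198), MT-CO2 (-1.01, SE 0.32, adjusted p = 0.0134) and MT-ND5 (-1.01, SE 0.31, adjusted p = 0.0128). With total reads in place of TMM the median log2 change was 0.73 instead of 0.01, and 20 were called, 18 higher and 2 lower. MT-RNR1 and MT-CO1 were the 2 called lower under both scalings, while 6 transcripts had a log2 change below 0 under both and 11 changed sign between them, and DESeq2 called 2 higher and 6 lower. Without parental replicate 1 there were 3 calls and without knock-out replicate 2 there were 9. The directions given for transcripts are relative to the others of the same libraries. By the study's methods each sample began with the same mass of mitochondria-enriched RNA, so the amount of RNA in each cell was not measured.

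**Figure D4:**
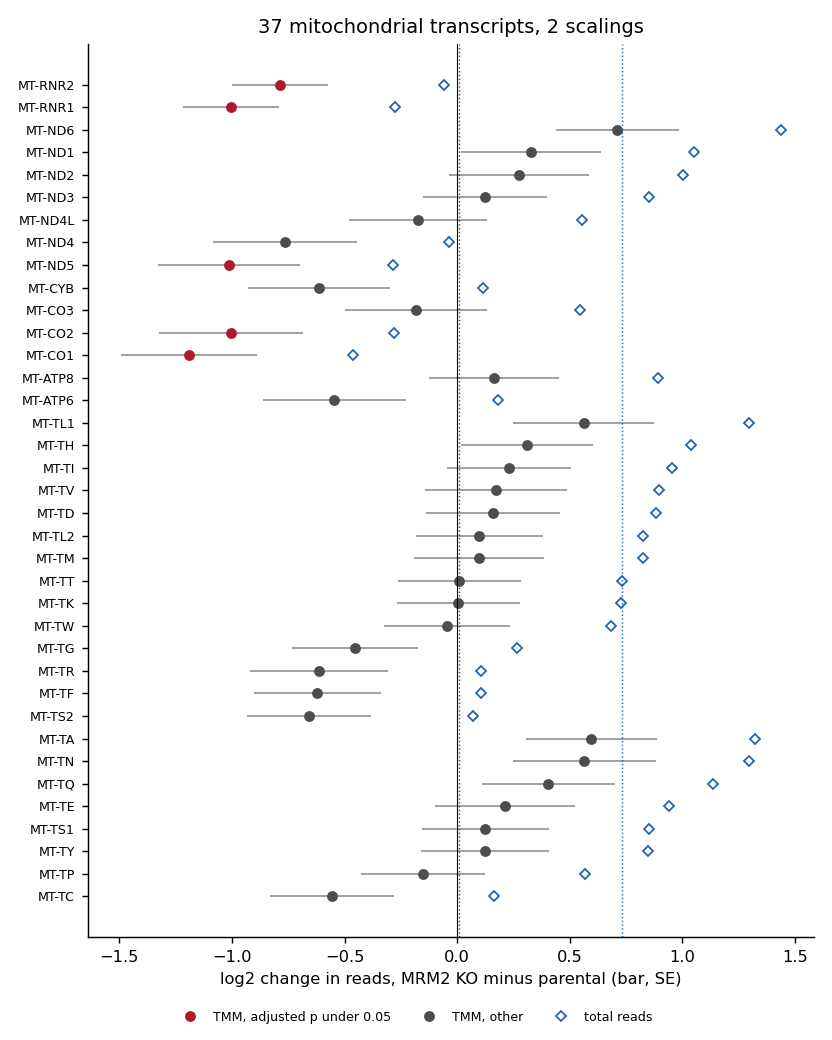
Log2 change in reads, MRM2 knock-out minus parental (horizontal axis), for the 37 transcripts ordered by class, with TMM scaling (circles with SE as bars, red for the 5 transcripts called) and with total reads (diamonds), and the median of each as a dotted line, at 0.01 and 0.73. Under both scalings MT-CO1 lies lowest and MT-ND6 highest. Each SE was derived from the test statistic of edgeR.

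Summed over their members, complex I mRNAs held a larger share of the mRNA reads in the knock-out and complex IV mRNAs a smaller one, and members differed. Of 13 mRNAs 3 were called lower by edgeR with TMM, 2 of 3 of complex IV (cytochrome c oxidase) and 1 of 7 of complex I (NADH dehydrogenase), and MT-CYB of complex III and both mRNAs of complex V (ATP synthase) were not called. Complex I mRNAs held 38.0, 38.0 and 39.5% of the mRNA reads in the MRM2 knock-out, against 29.7, 29.5 and 30.4% in parental cells. Complex IV mRNAs held 47.8, 48.4 and 47.7% in the knock-out and 57.4, 57.6 and 57.6% in parental cells. Within complex IV, MT-CO3 had 19410, 16906 and 18085 CPM in the knock-out and 12558, 12885 and 11882 in parental cells (log2 change 0.54 with total reads, adjusted p = 0.00760, and -0.18 with TMM, adjusted p = 0.752, edgeR), so the smaller share lay with MT-CO1 and MT-CO2. Within complex I, MT-ND5 had 7770, 6026 and 6928 CPM in the knock-out and 8641, 8580 and 8067 in parental cells. The 2 summed shares do not depend on the scaling, and neither overlapped between the lines (exact permutation p = 0.1, the smallest possible).

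MT-ND6, the mRNA of the light-strand transcript, had the highest log2 change under both scalings. It had 2685, 2560 and 2748 CPM (counts of reads scaled to the same library total) in the MRM2 knock-out, against 1027, 892 and 1026 in parental cells, so that its share of mRNA reads was 1.85, 2.18 and 2.08% in the knock-out and 0.808, 0.683 and 0.855% in parental cells. The log2 change was 0.71 with TMM (SE 0.28, adjusted p = 0.0620, edgeR) and 1.44 with total reads (SE 0.17, adjusted p = 4.52e-05, edgeR). MT-ND1 and MT-ND2, the first mRNAs downstream of the rRNAs, had 10445, 8471 and 9952 and 10728, 8846 and 9940 CPM in the knock-out, against 4593, 4974 and 4356 and 4647, 5128 and 4964 in parental cells, which passed with total reads (log2 changes 1.05 and 1.00) and not with TMM (0.33 and 0.27). MT-CO1 had 36424, 27973 and 32335 CPM in the knock-out and 44904, 46303 and 42239 in parental cells. Reads shared by the overlapping pairs MT-ATP8 and MT-ATP6, and MT-ND4L and MT-ND4, could have been counted for either.

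None of the 22 tRNAs was called with TMM by edgeR, and their TMM log2 changes ran from -0.66 for MT-TS2 to 0.60 for MT-TA. With total reads 11 of the 22 were called higher, near the share over all transcripts, 18 of 37. As a class they took 11.6, 18.8 and 16.7% of all reads in the MRM2 knock-out, against 8.50, 7.03 and 8.93% in parental cells, with the widest spread in the knock-out. The rRNAs took 71.1 ± 2.37% in the knock-out and 79.3 ± 0.587% in parental cells, and the mRNAs 13.2 ± 1.40% in the knock-out and 12.6 ± 0.539% in parental cells (SD, n = 3 each). Light-strand tRNAs held 50.5, 52.7 and 59.4% of tRNA reads in the knock-out and 53.1, 47.6 and 52.7% in parental cells, which overlapped.

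Within the ribosomal RNAs, the balance lay further towards 16S in the knock-out. The knock-out libraries had 1.41, 1.34 and 1.35 16S reads per 12S read, against 1.16, 1.19 and 1.17 in the parental libraries, a ratio of the means of 1.16. By mean coverage in place of reads the values were 0.899, 0.860 and 0.881 in the knock-out and 0.733, 0.753 and 0.748 in parental cells. Neither measure overlapped between the lines (exact permutation p = 0.1 each). In CPM, 12S had 306910, 296537 and 298230 in the knock-out and 365033, 364350 and 363945 in parental cells, which did not overlap, and 16S had 431631, 398356 and 402488 in the knock-out and 422850, 434827 and 426789 in parental cells, which did.

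**Figure D5:**
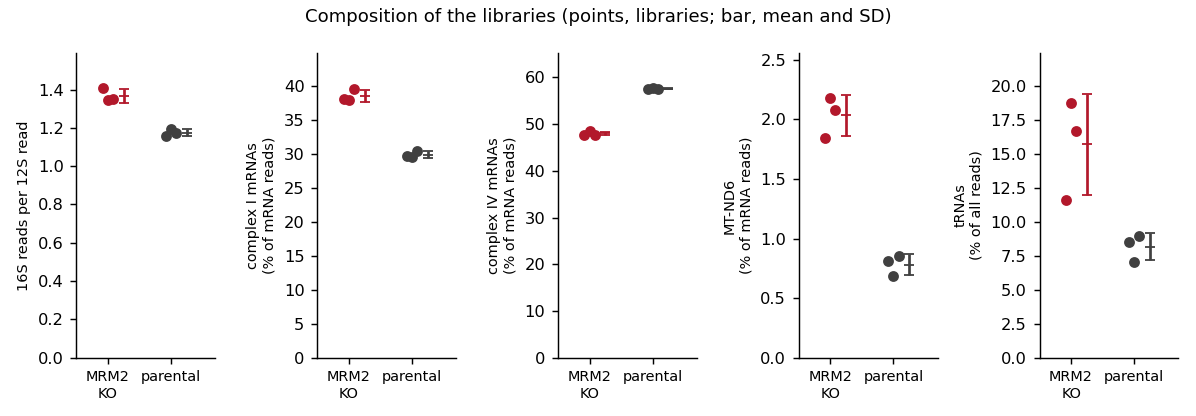
16S reads per 12S read, the shares of complex I mRNAs, complex IV mRNAs and MT-ND6 among mRNA reads (%) and the share of tRNAs among all reads (%), in the MRM2 knock-out (red, left) and the parental line (grey, right), with libraries as points and the mean and SD beside them. In all 5 panels the lines do not overlap.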

How the data were processed

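The libraries, all from HEK293T Flp-In T-REx cells, hold mitochondrial RNA fragmented at alkaline pH, ligated to an adaptor and reverse transcribed at 500 μM dNTPs. Per the submitters' processing notes, STAR 2.5.3a and GRCh38.p13 were used, and by the study's methods reads were mapped to mtDNA alone. For every transcript position the authors deposited raw counts of fragment ends on either side, and coverage. The 2 end columns were told apart by rebuilding coverage, which succeeded at all 15416 positions with 1 assignment of 5′ and 3′ ends, opposite to the headings. The deposited cleavage protection scores and RT-stop ratios are fractions made by the authors from the counts (6 flanking positions per side, a flank median of at least 15 reads, and 1 read added to stops and coverage), and all were recovered from the counts. The 12 libraries of the 4 lines at 500 μM entered each fit. The 3′ ends, each relative to the mean of 12 flanking positions with 1 read added, the ratios (log2, coverage of at least 50 reads), the scores (above 0 in at least 3 libraries), the fragment lengths and the coverage ratios (transcripts with at least 100 reads) were tested with limma 3.58.1, and reads per transcript (at least 10 in 3 libraries) with edgeR 4.0.16 (TMM, quasi-likelihood) in R 4.3.3. Tests were two-sided with Benjamini-Hochberg adjusted p under 0.05, and exact permutation tests were used for single values. The SE given with edgeR is the size of the log2 change over the square root of its F statistic. Named positions are the 10 modified residues and up to 5 largest calls without overlap in each direction. G2943, A2717, A3059, A2029, G15989, the further calls listed and the transcripts below the threshold were named after their values were seen. The positions, lists and tests were chosen with earlier results of these data known. Alternatives were the 6 libraries alone, a replicate block, each library left out, DESeq2 1.42.0 or total reads, rRNAs or filters left out, other flanks, coverage minima, bins and added counts, edgeR on the counts, and thinning to 162673 reads. Replicate numbers come from the titles, and correlations between the deviations of same-numbered libraries were above 0.1 in all 3 pairs only in fragment length (0.20, 0.24 and 0.48). The models were tested on simulated data. Figures and summaries used Python 3.11.15. The 2 μM libraries were not used.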

Additional observations from a re-analysis of the deposited data

How the results depend on the processing

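Counts of calls moved more than the named changes. Leaving out 1 library in turn gave 0 to 2 calls in cleavage protection, 6 to 34 in 3′ ends, 0 to 291 in RT-stop ratio, 2 to 29 in fragment length, 0 to 15 in the 5′ to 3′ coverage ratio, 0 to 80 bins, 3 to 9 transcripts by reads, and a difference of 0.172 to 0.203 in 16S reads per 12S read, a setting added after seeing the data. The 6 libraries alone gave 0 calls in cleavage protection, 23 in fragment length and 10 transcripts. Thinning to equal depth gave 0 calls in cleavage protection, 10 in 3′ ends and 72 in RT-stop ratio, and edgeR on the counts gave 33 in 3′ ends (23 higher and 10 lower) and 250 in RT-stop ratio. Without the filter on scores above 0 cleavage protection gave 0 calls, where most residual variances were 0 and limma is unreliable. The RT-stop ratio gave 1113 calls with a coverage of at least 20 reads, 49 with at least 200 and 53 with 0.1 added. Fragment length gave 16 calls with at least 500 reads, and the coverage ratio 7 with at least 10. Bins of 25 and 100 positions gave 71 and 16 calls, and a coverage of at least 200 reads gave 17. Reads per transcript gave 20 calls with total reads and 8 with DESeq2. Mean coverage in place of reads, added after seeing the data, gave a difference of 0.135 between the lines in the 16S to 12S ratio. With the replicate block there were 1 call in cleavage protection, 16 in 3′ ends, 151 in RT-stop ratio, 2 in fragment length, 10 in the coverage ratio, 0 bins and 6 transcripts. Same-numbered libraries also correlated weakly in 3′ ends (0.15, 0.05 and 0.20) and in cleavage protection (0.12, 0.08 and 0.13), where each knock-out library correlated best with its own number, a hint from the data and not the design. The depth of the knock-out, 162673 to 194073 reads, limits single positions with few stops. No called position, bin or transcript among those followed through the alternatives changed direction. With total reads in place of TMM, 11 of 37 transcripts turned, such as MT-TS2 (-0.66 to 0.07), MT-CYB (-0.61 to 0.11), MT-ATP6 (-0.55 to 0.18) and MT-CO3 (-0.18 to 0.54), and the median change in RT-stop ratio was -0.32 by edgeR on the counts in place of 0.11. The cause of the other changes was not tested.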
